A study of Saccharomyces cerevisiae with 32 samples.

Results

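The transcripts described here are those of 10 genes of mitochondrial iron-sulfur cluster assembly, ISU1, ISU2, NFS1, ISD11, YFH1, JAC1, SSQ1, GRX5, ISA1 and ISA2. They were found by their symbols among the 6328 genes of the table, and all 10 were present. RNA was sequenced from 3 strains of budding yeast. Y22-3 is a stress-tolerant strain given the enzymes for xylose use, Y127 was derived from it by aerobic passage on xylose, and Y128 was derived from Y127 by further passage without oxygen. All 3 strains carry xylA of Clostridium phytofermentans, XYL3 of Scheffersomyces stipitis and a transaldolase gene. Y127 carries null mutations of ISU1 and of the stress kinase gene HOG1, and Y128 carries in addition losses of GRE3, a xylitol-forming reductase gene, and of IRA2, an inhibitor of RAS signaling. The RNA table holds no information on alleles, so the ISU1 values in Y127 and Y128 are levels of RNA from a mutated gene and do not check the mutation. Each evolved strain is a single lineage.

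Cultures were grown in rich YP medium with 2% glucose, xylose, galactose or sorbitol, with oxygen (aerobic, +O2) or without it (anaerobic, -O2). The 3 strains in glucose and xylose, with and without oxygen, gave 12 groups of 2 libraries collected on different days, and these 24 libraries entered the tests. Galactose and sorbitol were used for Y22-3 and Y128 only, giving the other 8 libraries, 1 per condition. Y22-3 and Y127 are described as not growing in anaerobic xylose, and neither strain tested in sorbitol is described as growing there. In those cultures the lack of growth and the sugar or oxygen condition cannot be told apart.

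Iron-sulfur clusters are cofactors of respiratory complexes, aconitase, biotin and lipoate synthases and several DNA replication and repair enzymes. In yeast they are first built in the mitochondrial matrix on the scaffold proteins Isu1 and Isu2, a closely related pair in which either one is enough for viability. The cysteine desulfurase Nfs1, held active by its partner Isd11, supplies the sulfur, and the frataxin Yfh1 assists its transfer to the scaffold. The Hsp70 chaperone Ssq1 and its J-protein partner Jac1 then release the cluster from Isu1, the monothiol glutaredoxin Grx5 passes it on, and Isa1 and Isa2 take part in the later making of 4Fe-4S clusters. Output of the pathway also informs the iron-sensing factors Aft1 and Aft2, which activate genes of iron uptake.

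The genes lie apart on the genome. In the R64 build of the reference strain S288C, ISU1 (YPL135W) spans positions 297553 to 298050 of chromosome XVI on the plus strand, ISU2 (YOR226C) 761614 to 762084 of chromosome XV on the minus strand, and NFS1 (YCL017C) 92777 to 94270 of chromosome III on the minus strand. ISD11 (YER048W-A) spans 250718 to 251002 of chromosome V, YFH1 (YDL120W) 245923 to 246447 of IV, SSQ1 (YLR369W) 859552 to 861525 of XII and ISA1 (YLL027W) 87403 to 88155 of XII, all on the plus strand, as are GRX5 (YPL059W) at 444579 to 445031 and ISA2 (YPR067W) at 682220 to 682777 of XVI. JAC1 (YGL018C) spans 459110 to 459664 of VII on the minus strand. Each of the 10 genes has 1 coding exon and overlaps no other gene annotated there. The promoters of ISU1 and NFS1 are printed because these were the members that differed most between Y128 and Y22-3 in anaerobic xylose. Each runs from 250 bases before the start codon to 50 bases after it, 5′ to 3′ on the gene's strand, in the S288C sequence, from which the Y22-3 genome used for mapping may differ. They cover chrXVI:297303-297602 (plus strand) for ISU1 and chrIII:94221-94520 (minus strand) for NFS1. Capitals mark matches to the motifs named after them.

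ISU1 promoter: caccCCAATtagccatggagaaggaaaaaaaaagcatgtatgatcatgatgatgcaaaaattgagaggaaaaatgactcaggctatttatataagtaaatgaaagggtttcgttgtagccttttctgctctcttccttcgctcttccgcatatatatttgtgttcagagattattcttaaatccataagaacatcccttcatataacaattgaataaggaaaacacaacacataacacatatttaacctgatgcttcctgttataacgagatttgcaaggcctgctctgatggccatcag
NFS1 promoter: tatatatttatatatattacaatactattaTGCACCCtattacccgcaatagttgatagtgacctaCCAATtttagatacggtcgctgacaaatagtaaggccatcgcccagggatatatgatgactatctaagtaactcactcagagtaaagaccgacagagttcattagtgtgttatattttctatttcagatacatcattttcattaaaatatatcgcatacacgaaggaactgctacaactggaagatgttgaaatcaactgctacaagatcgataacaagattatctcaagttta

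Windows of this size of the members other than ISU2 were searched on both strands for GGCACCC or TGCACCC (the Aft1 and Aft2 motif), CCAAT (Hap2/3/4/5), AGGGG (Msn2 and Msn4) and TTACTAA (the Yap family). Among them NFS1 alone held a full Aft motif within the window, TGCACCC at 220 bases before the start codon, a motif held by 2.33% of 6001 promoters. The ISU1 window opens with CACCC, the end shared by both Aft motifs, and the bases before it were not searched. Whether ISU1 holds a full Aft motif at that edge is therefore not known. CCAAT, held by 43.3% of promoters, stood at 246 bases before the start codon of ISU1, at 184 in NFS1 and at 121 in ISA2, and on the other strand at 206 in ISD11 and 183 in GRX5. TTACTAA, held by 7.45%, stood at 105 bases in ISA2 and 152 in ISA1, and on the other strand at 143 in YFH1. AGGGG, held by 21.6%, was in none of these windows, and JAC1 and SSQ1 held none of the 4 motifs. A match is a description of the letters and not of binding.

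Values were log2 RPKM, read counts divided by gene length and by the mapped reads of the library, and so are relative to the total of a library and comparable between genes by length. Library totals recovered from the values were 7.53 to 24.1 M reads in the duplicated groups and 9.36 to 22.5 M in the others. Members had between 23 reads, with a 95% exact Poisson interval of 14.6 to 34.5, and 37410 reads. Such intervals cover counting error only. The coding sequences of ISU1 and ISU2 were identical at 68.8% of 471 aligned bases, and their longest shared run was 12 bases, beside reads of 100 bases. The scale shifted between groups. In Y22-3 the median tested gene was 1.28 log2 units lower in anaerobic than in aerobic xylose, so a positive change there is a larger change against most other genes. Counts are therefore also given after setting the median tested gene of each library to 0, written as centred libraries. In these bulk samples fewer cells with a transcript and less of it per cell cannot be told apart.

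ISU1 varied over a 45.6-fold range of group means, the widest of the 10 members and wider than in 89.8% of tested genes. It was highest among the duplicated groups in Y22-3 in anaerobic xylose, at 11.24 and 11.54 log2 RPKM (mean 2685 RPKM), and lowest in Y128 in the same medium, at 5.85 and 5.91 (58.9 RPKM). Y127, carrying the same ISU1 mutation as Y128 by descent, lay between them at 7.44 and 8.25. No library of one strain reached the range of another in this medium, and the median tested gene had a range of 3.03 log2 units against 5.51 for ISU1.

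With oxygen, xylose libraries of all 3 strains stood above all glucose libraries. ISU1 was at 9.49 and 9.77 in Y22-3, 8.66 and 8.38 in Y127, with 9.50 and 9.06 in Y128 in aerobic xylose, in log2 RPKM. Aerobic glucose gave 7.14 and 7.08 in Y22-3, 7.01 and 7.07 in Y127, with 6.58 and 6.81 in Y128. Anaerobic glucose gave 5.96 and 6.02, 6.78 and 6.20 and 6.70 and 6.82 in the same order. The strains were thus close together in glucose and furthest apart in xylose without oxygen. In the order of all 20 conditions, Y128 in aerobic sorbitol came first and Y128 in anaerobic xylose last. The groups of Y22-3 and Y128 in aerobic xylose overlapped, as did both Y128 glucose groups and the anaerobic glucose group of Y127.

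**Figure D1:**
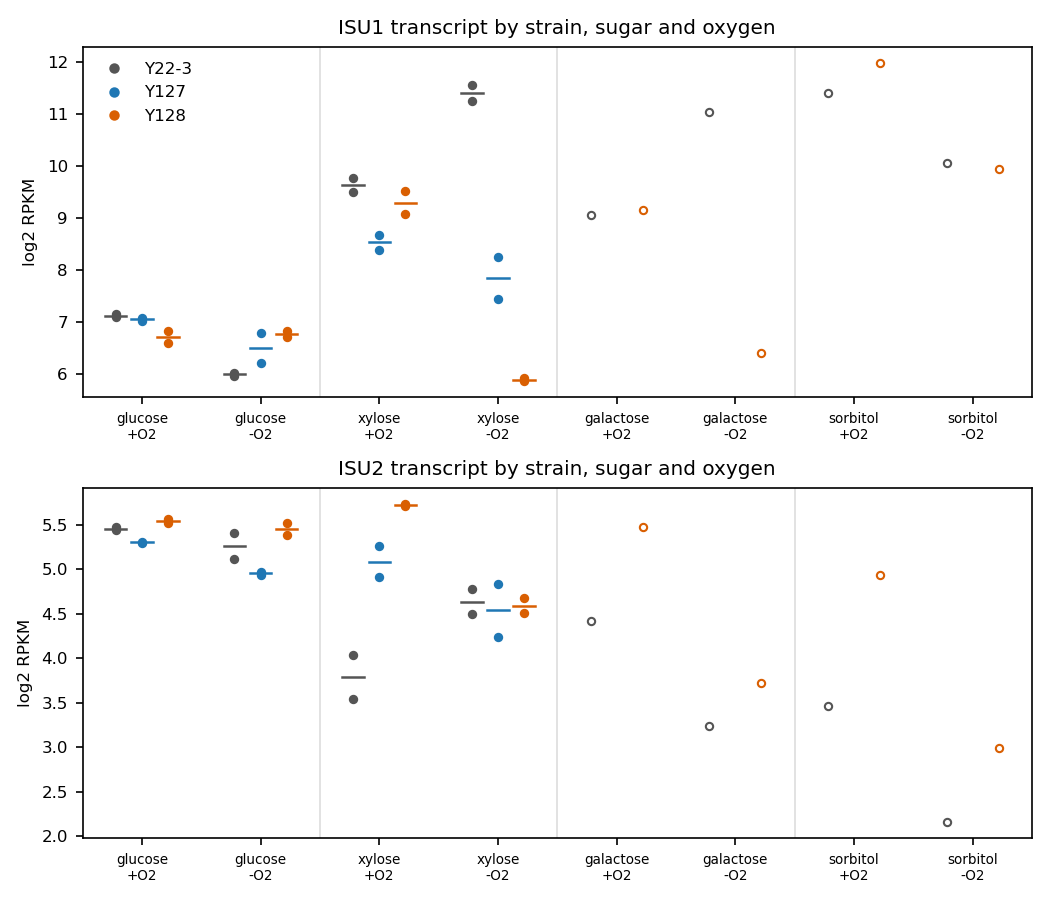
Level of ISU1 (upper) and ISU2 (lower) in log2 RPKM by sugar and oxygen. Filled points are libraries of duplicated groups with a bar at their mean, open points are single libraries, and colors give the strain. ISU1 separates the strains in anaerobic xylose from 11.54 down to 5.85, while the ISU2 libraries there lie between 4.24 and 4.84.

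The first question was how ISU1 moved when oxygen was withheld. The linear model limma, fitted to all 24 libraries with Benjamini-Hochberg adjustment over 5801 genes per comparison, was the test throughout, and its standard error for ISU1 was 0.232 log2 units for a difference of 2 groups. In xylose ISU1 rose by 1.76 in Y22-3 (limma adjusted p = 5.93e-07), which was 3.04 above the median gene, and fell by 3.40 in Y128 (limma adjusted p = 2.05e-10), a 10.6-fold decrease that placed it at percentile 1.34 of all changes. The fall of 0.68 in Y127 (limma adjusted p = 0.0179) rested on single libraries. It had an adjusted p of 0.359 without anaerobic replicate A and 0.117 without aerobic replicate A of Y127 in limma. In glucose ISU1 fell by 1.12 in Y22-3 (limma adjusted p = 0.000316). The fall of 0.55 in Y127 (limma adjusted p = 0.0409) was lost without either aerobic library (adjusted p 0.0960 and 0.130) and without the second anaerobic one (0.408). In Y128 the change was 0.06, with a 95% interval of -0.42 to 0.55 (intervals are not adjusted for the number of genes). The change in xylose differed between the strains, by -2.44 for Y127 against Y22-3 (limma interaction, adjusted p = 1.65e-06), -5.17 for Y128 against Y22-3 (6.09e-11) and -2.73 for Y128 against Y127 (3.05e-06). These 3 interactions share libraries with each other and with the oxygen comparisons.

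The second question was how ISU1 differed between sugars. With oxygen it was 5.73-fold higher in xylose than in glucose in Y22-3, 2.79-fold in Y127 and 6.0-fold in Y128 (limma adjusted p = 2.10e-08, 5.60e-05 and 1.93e-08), with no overlap of libraries in any strain. Without oxygen it was 42.3-fold higher in xylose in Y22-3 and 2.56-fold higher in Y127 (limma adjusted p = 5.03e-14 and 7.03e-05). In Y128, the one strain that grew there, it was 1.84-fold lower in xylose (limma adjusted p = 0.00567). Against Y22-3 in aerobic xylose, ISU1 was 2.15-fold lower in Y127 (limma adjusted p = 0.000711). Y128 was 0.76 log2 units above Y127 there, with a limma adjusted p of 0.104 and a 95% interval of 0.28 to 1.25. In anaerobic xylose Y127 was 11.7-fold below Y22-3 and Y128 was 3.90-fold below Y127 (limma adjusted p = 5.32e-11 and 7.30e-07). In glucose neither the ISU1 difference of Y127 from Y22-3 nor that of Y128 from Y127 passed, with intervals of -0.55 to 0.42 for Y127 against Y22-3 and -0.83 to 0.14 for Y128 against Y127 with oxygen, and 0.01 to 0.98 and -0.21 to 0.76 without it. Y128 against Y22-3 was not tested in glucose. Their ISU1 libraries did not overlap there, and those of Y128 were the lower with oxygen and the higher without it.

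ISU2, the second scaffold, was lower than ISU1 in every library and moved otherwise. In aerobic xylose it was at 4.03 and 3.54 log2 RPKM in Y22-3, at 5.26 and 4.92 in Y127, with 5.74 and 5.71 in Y128. The aerobic glucose libraries lay at 5.47 and 5.44 in Y22-3, 5.31 and 5.30 in Y127, with 5.57 and 5.52 in Y128. The Y22-3 xylose libraries were thus below all other aerobic libraries in these sugars. ISU2 was 3.18-fold lower in xylose than in glucose in aerobic Y22-3 (limma adjusted p = 5.30e-07), while in Y127 and Y128 the difference did not pass, with intervals of -0.62 to 0.19 and -0.23 to 0.58. Between strains it was 2.46-fold higher in Y127 than in Y22-3 in aerobic xylose (limma adjusted p = 2.21e-05), a change at percentile 97.6 of all genes. Over the growing conditions, aerobic xylose and both glucose conditions, the evolved strains averaged 0.51 log2 units above Y22-3 (limma adjusted p = 0.000252). In glucose alone Y127 differed from Y22-3 by -0.15 with oxygen and -0.30 without, and neither passed.

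Without oxygen in xylose no ISU2 difference between strains passed. The libraries were at 4.78 and 4.49 in Y22-3, 4.24 and 4.84 in Y127, with 4.67 and 4.50 in Y128, and they overlapped, with an interval of -0.45 to 0.36 for Y128 against Y22-3. Oxygen loss raised ISU2 by 0.85 in Y22-3 (limma adjusted p = 0.000439) and lowered it by 1.14 in Y128 (limma adjusted p = 7.46e-05), and the 2 changes differed by -1.98 (limma interaction, adjusted p = 1.75e-06). The fall of 0.55 in Y127 (limma adjusted p = 0.021) was lost without aerobic replicate A (0.162) or anaerobic replicate A (0.329). In glucose no ISU2 change with oxygen passed in any strain, while with centred libraries it fell by 0.47 in Y22-3, 0.51 in Y127 and 0.40 in Y128 (limma adjusted p = 0.00487, 0.00229 and 0.0129). In anaerobic Y128 ISU2 was 1.82-fold lower in xylose than in glucose (limma adjusted p = 0.00161). The fall of 0.62 in anaerobic Y22-3 (limma adjusted p = 0.00541) turned into a rise of 0.61 with centred libraries, and did not pass without anaerobic glucose replicate A (0.0660) or anaerobic xylose replicate B (0.0643).

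The ratio of ISU1 to ISU2 within a library does not depend on how the library was scaled. In Y22-3 it was 3.17 and 3.12 in aerobic glucose, 44.0 and 74.6 with oxygen in xylose and 88.1 and 132 without. In Y128 aerobic glucose gave 2.02 and 2.44 and aerobic xylose 13.6 and 10.2, and in anaerobic xylose it was 2.26 and 2.65, close to the 2.02 to 2.48 of its glucose libraries. In Y127 it was 10.6 and 11 in aerobic and 9.18 and 10.6 in anaerobic xylose. ISU2 accordingly made up 29.0% of the summed scaffold RPKM in anaerobic xylose in Y128, 9.21% in Y127 and 0.936% in Y22-3 (means of 2 libraries each). In anaerobic glucose the 3 strains had 28.8%, 25.9% and 37.7%. The ratio was used as a description and was not tested.

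**Figure D2:**
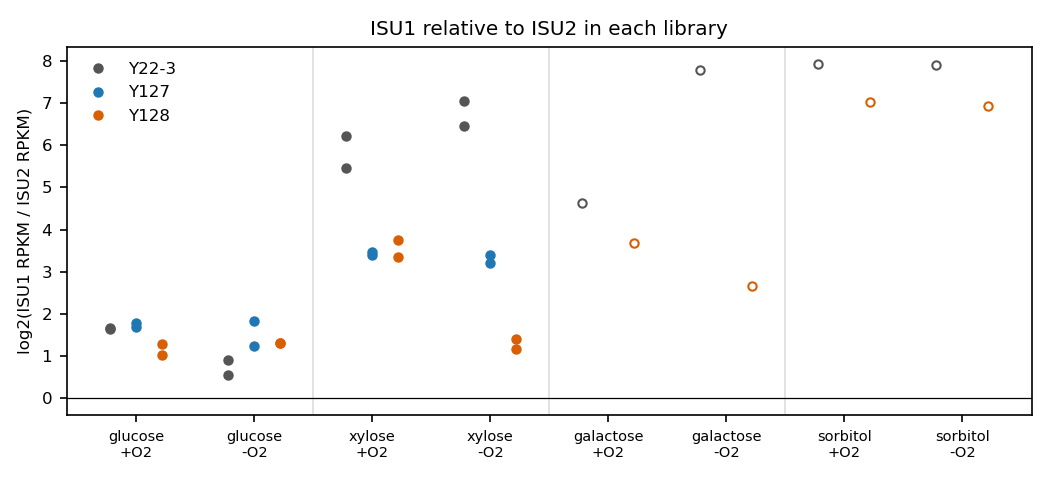
ISU1 over ISU2 on a log2 scale in each library by sugar and oxygen, with 0 for equal RPKM. Filled points are libraries of duplicated groups, open points single libraries, and colors give the strain. Y128 in anaerobic xylose lies at 1.18 and 1.41, beside 6.46 and 7.05 in Y22-3.

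The sulfur donor NFS1 changed with ISU1 in anaerobic xylose and over a smaller range. It was at 8.94 and 8.97 log2 RPKM in Y22-3, 6.91 and 7.56 in Y127, with 6.12 and 6.01 in Y128, with no overlap between strains. Its aerobic xylose libraries were close together, at 6.98 and 6.85, 6.78 and 6.63 and 7.03 and 7.05 in the same order. Oxygen loss in xylose raised NFS1 4.11-fold in Y22-3 and lowered it 1.97-fold in Y128 (limma adjusted p = 1.15e-09 and 0.000133, standard error 0.176 log2 units), and the interaction of -3.02 had an adjusted p of 1.78e-09 in limma. Y128 was 7.42-fold below Y22-3 and 2.25-fold below Y127 (limma adjusted p = 5.04e-12 and 1.33e-05). The rises in Y127 without oxygen, 0.53 in xylose and 0.47 in glucose, passed with limma adjusted p of 0.0145 and 0.0232, and neither passed with centred libraries (0.123 and 0.0928). The xylose call was lost without anaerobic replicate B (0.351) or aerobic replicate B (0.0717). The glucose call was lost without the second anaerobic library (0.222) or either aerobic one (0.0702 and 0.0888).

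ISD11, the partner that keeps the desulfurase active, did not follow NFS1 in the parent. It was at 8.13 and 8.32 in aerobic and 7.43 and 7.14 in anaerobic xylose in Y22-3, a fall of 0.94 (limma adjusted p = 9.40e-05) that was smaller than that of the median gene and became a difference of 0.21 with centred libraries. In Y128 it went from 8.10 and 8.03 to 6.11 and 6.14, 3.84-fold lower (limma adjusted p = 3.65e-08), and in Y127 it was at 7.88 and 7.50 and 7.19 and 7.87, which overlapped. In glucose it fell in all 3 strains, by 1.36 in Y22-3, 1.37 in Y127 and 0.80 in Y128 (limma adjusted p = 3.18e-06, 2.12e-06 and 0.000798). None of its glucose libraries with oxygen overlapped one without.

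YFH1, the frataxin, stayed within a range of 1.36 log2 units over the duplicated groups and was highest in Y127 in anaerobic xylose, at 6.43 and 6.62. Y22-3 was at 5.88 and 5.77 and Y128 at 5.64 and 5.81 there. It rose 1.75-fold in Y127 when oxygen was withheld in xylose (limma adjusted p = 0.000168), and this change differed from that in Y22-3 by 1.23 and that in Y128 from it by -1.11 (limma interactions, adjusted p = 4.18e-05 and 0.000518). The difference from Y22-3 turned to -0.17 with centred libraries. In glucose YFH1 fell by 0.47 in Y22-3, 0.76 in Y127 and 0.54 in Y128 (limma adjusted p = 0.0114, 0.000206 and 0.00438). The call in Y22-3 was lost without aerobic replicate A (0.0663) or anaerobic replicate B (0.0685), and that in Y128 without anaerobic replicate B (0.0671). The fall of 0.42 in Y22-3 in xylose (limma adjusted p = 0.0154) became a rise of 0.73 with centred libraries, and was lost without aerobic replicate A (0.0777) or anaerobic replicate B (0.0792).

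The chaperone genes had the lowest levels of the members when averaged over the duplicated groups. JAC1, the J-protein that brings the scaffold to Ssq1, was highest in Y127 in anaerobic xylose, at 4.55 and 5.11, beside 3.93 and 3.5 with oxygen. That rise of 2.17-fold passed (limma adjusted p = 0.000122), and in Y22-3 and Y128 the changes of 0.21 and 0.08 did not. With centred libraries the Y22-3 change was 1.36 and passed (limma adjusted p = 3.39e-07), beside 0.87 in Y127. JAC1 was 1.75-fold lower in Y128 than in Y127 in anaerobic xylose (limma adjusted p = 0.00234), a call lost without replicate B of Y127 (0.0691). SSQ1, the Hsp70 itself, had the smallest range of the 10, 1.85-fold. It went from 3.63 and 3.40 to 4.38 and 4.42 in Y22-3 glucose, a rise of 0.89 (limma adjusted p = 0.00046). The SSQ1 rises of 0.55 in Y127 and 0.55 in Y128 passed too (limma adjusted p = 0.0152 and 0.0165), but were lost without the second anaerobic library of Y127 (0.109) or its first aerobic one (0.0883), and without aerobic replicate A (0.0537), aerobic replicate B (0.0712) or anaerobic replicate A (0.101) of Y128. The glucose rise in Y128 was 0.24 with centred libraries and did not pass (limma adjusted p = 0.0653). In xylose SSQ1 passed with oxygen loss in no strain, with changes of 0.23, 0.10 and -0.44 in Y22-3, Y127 and Y128. With centred libraries it rose by 1.38 in Y22-3 and fell by 0.45 in Y128 (limma adjusted p = 7.40e-09 and 0.00374).

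GRX5, which passes the cluster from the chaperones to targets, fell in glucose without oxygen in all 3 strains. It went from 7.10 and 6.94 to 5.77 and 5.78 in Y22-3, from 6.80 and 6.96 to 5.66 and 5.52 in Y127 and from 6.66 and 6.63 to 5.57 and 5.50 in Y128. The falls of 2.38-, 2.44- and 2.16-fold passed whichever library was left out (limma adjusted p = 7.84e-06, 4.12e-06 and 2.36e-05 with all). Its xylose libraries did not show that fall in Y22-3, which had 7.33 and 7.23 with and 7.76 and 7.69 without oxygen. In anaerobic cultures GRX5 was higher in xylose than in glucose by 3.87-fold in Y22-3, 3.04-fold in Y127 and 1.83-fold in Y128 (limma adjusted p = 3.95e-09, 5.58e-07 and 0.000938), and in Y128 it was the only member called higher, while with centred libraries YFH1 (0.59) and JAC1 (0.63) were called higher too (limma adjusted p = 0.000137 and 0.00328). The xylose changes with oxygen loss, 0.45, 0.50 and -0.58 in Y22-3, Y127 and Y128, passed (limma adjusted p = 0.0309, 0.0249 and 0.014). The calls in Y22-3 and Y128 were each lost without any 1 of their 4 libraries, at adjusted p of 0.0519 to 0.119 and 0.0526 to 0.0763, and that in Y127 without aerobic replicate B (0.385) or anaerobic replicate B (0.358).

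ISA1 and ISA2, which act together in the late step, had different patterns. ISA1 rose without oxygen in glucose in all 3 strains, from 4.77 and 4.88 to 5.69 and 5.50 in Y22-3, from 4.67 and 4.49 to 5.57 and 5.74 in Y127 and from 4.47 and 4.57 to 5.95 and 5.86 in Y128. The rises were 1.71-, 2.11- and 2.61-fold (limma adjusted p = 0.00134, 4.43e-05 and 2.02e-06). In xylose ISA1 separated the parent from the evolved strains. Y22-3 had 5.73 and 5.22 with and 6.73 and 6.63 without oxygen, Y127 had 4.41 and 3.85 and 4.46 and 4.78, and Y128 had 4.81 and 4.90 and 4.91 and 5.06. Y127 was 2.53-fold below Y22-3 in aerobic xylose and 4.16-fold below it in anaerobic xylose (limma adjusted p = 1.13e-05 and 4.24e-09). Y128 was 3.24-fold below Y22-3 in anaerobic xylose (limma adjusted p = 4.40e-08), and its difference of 0.36 from Y127 there did not pass, with an interval of -0.03 to 0.75.

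In aerobic xylose ISA1 was the one member that passed between Y128 and Y127, by 0.72 (limma adjusted p = 0.0452). The call was lost without Y127 replicate B (0.339), Y128 replicate A (0.186) or Y128 replicate B (0.329). ISA2 was higher in xylose than in glucose. Its aerobic libraries were at 5.25 and 5.24 in glucose and 6.23 and 5.89 in xylose in Y22-3, and at 4.78 and 5.06 and 6.09 and 5.95 in Y128. The differences of 1.76-fold in Y22-3 and 2.15-fold in Y128 passed (limma adjusted p = 0.00181 and 0.000161), and that of 0.43 in Y127 did not (limma adjusted p = 0.0928). Without oxygen in xylose it was at 6.06 and 5.83 in Y22-3, 5.84 and 6.56 in Y127, with 5.13 and 5.23 in Y128, 2.02-fold lower in Y128 than in Y127 (limma adjusted p = 0.000244). Oxygen loss in xylose lowered ISA2 in Y128, by 0.84 (limma adjusted p = 0.00187), and this change differed from that in Y127 by -1.28 and from that in Y22-3 by -0.73 (limma interactions, adjusted p = 0.00148 and 0.0245). The changes in Y22-3 and Y127 did not pass, with intervals of -0.53 to 0.30 and 0.02 to 0.86 (limma adjusted p = 0.0664 in Y127), but with centred libraries ISA2 rose by 1.04 in Y22-3 (limma adjusted p = 6.96e-06).

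**Figure D3:**
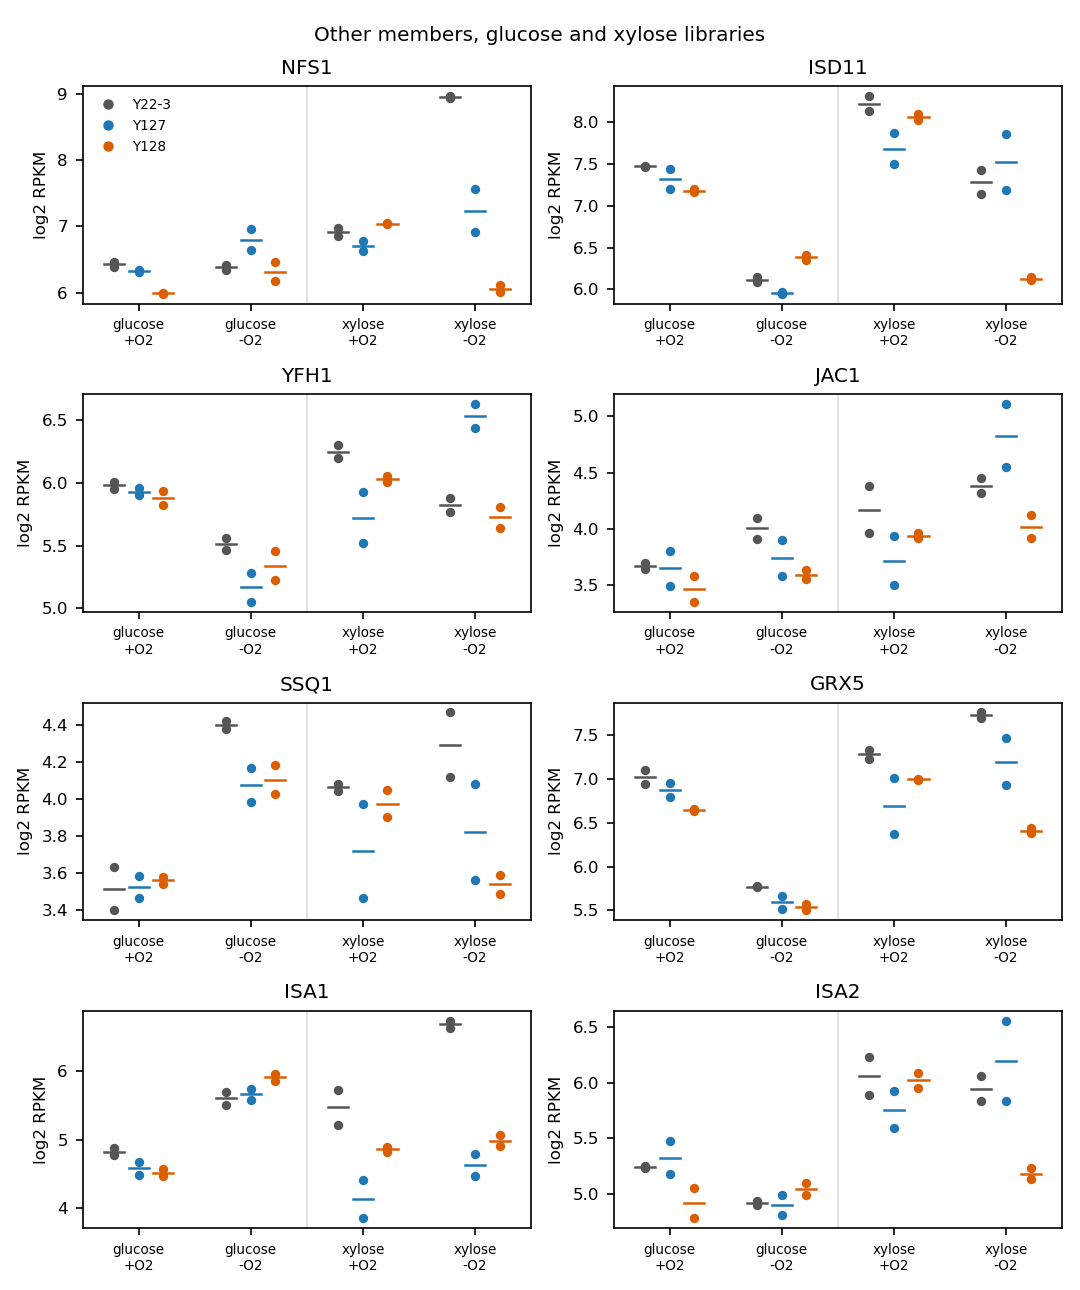
Level of the other 8 members in log2 RPKM in the 24 glucose and xylose libraries, 1 panel per gene with its own axis. Points are libraries, bars group means of 2, and colors give the strain. NFS1, ISD11, GRX5 and ISA2 are lowest in Y128 among the strains in anaerobic xylose, and YFH1 and JAC1 are highest in Y127.

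Taken as a group, the 10 members were counted beside all tested genes. The count is a description, and the group was not tested as a set. Many genes changed with oxygen in any strain, so a share of members has to be read against that background. In glucose without against with oxygen, in Y22-3 2 members were higher and 4 lower, beside 37.7% and 27.6% of all tested genes, and 2 and 6 with centred libraries, beside 32.4% and 40.2%. In Y127 3 members were higher and 4 lower, beside 35.3% and 32.9% of all tested genes, and 2 and 6 with centred libraries, beside 33.6% and 42.0%. In Y128 2 members were higher and 3 lower, beside 39.6% and 28.8% of all tested genes, and 1 and 4 with centred libraries, beside 34.1% and 41.9%. ISA1 and SSQ1 were higher and ISD11, YFH1 and GRX5 lower in all 3 strains, and JAC1, ISU2 and ISA2 passed in none. With centred libraries SSQ1 did not pass in Y128 (limma adjusted p = 0.0653), while ISU2 fell in all 3 strains and ISA2 in Y22-3 and Y127 (by 0.60 and 0.59). The members' median changes were -0.26, -0.39 and 0.10, beside 0.15, 0.02 and 0.18 for all genes.

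In xylose the strains parted. In Y22-3 5 members were higher and 2 lower, beside 20.7% and 63.7% of all tested genes, and 9 and 0 with centred libraries, beside 40.3% and 45.0%. There the median gene changed by -1.28 and the median member by 0.34. In Y127 5 members were higher and 2 lower, beside 33.6% and 23.5% of all tested genes, and 2 and 3 with centred libraries, beside 28.9% and 37.3%. Of its 7 calls, 2 (YFH1 and JAC1) passed whichever library was left out, and 1 (JAC1) passed in a fit of the 4 compared libraries alone. The ISA1 rise of 0.49 (limma adjusted p = 0.0323) was lost without aerobic replicate B (0.378) or anaerobic replicate B (0.247). Of the anaerobic libraries of Y127, replicate B was the higher one in all 10 members. In Y128 0 members were higher and 6 lower, beside 21.0% and 26.3% of all tested genes, and 0 and 8 with centred libraries, beside 24.8% and 32.7%. The members that fell in Y128 were ISU1, ISU2, NFS1, ISD11, GRX5 and ISA2. Their median over all 10 was -0.71, beside -0.11 for all genes.

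**Figure D4:**
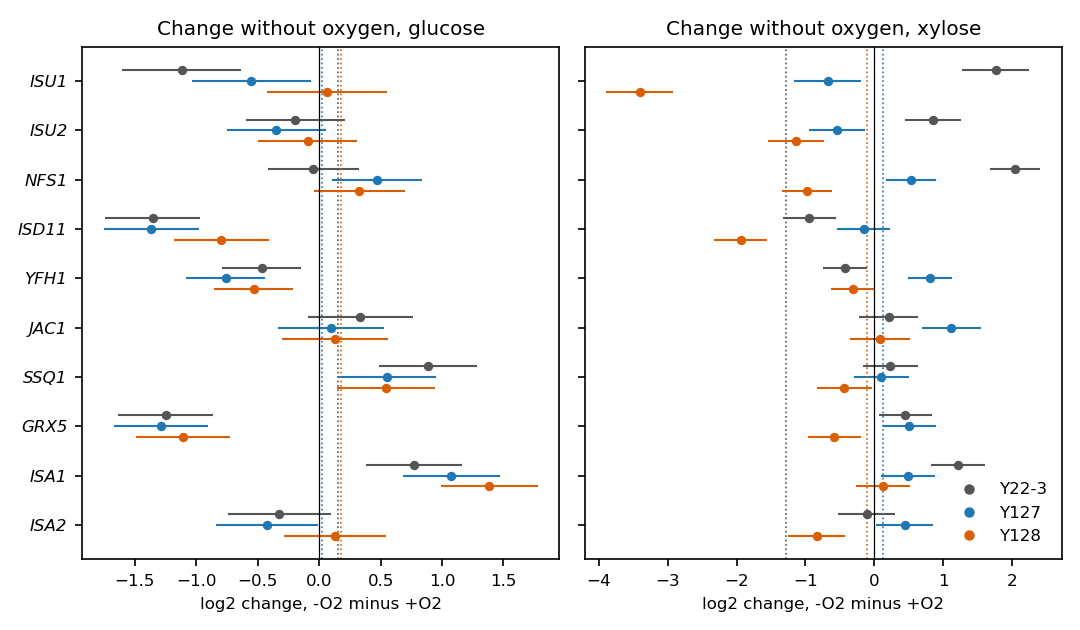
Change of each member without against with oxygen, in log2 units, in glucose (left) and xylose (right). Points are fitted changes with 95% intervals from limma, dotted lines give the median change of all tested genes in each strain, and colors give the strain. In xylose the points of ISU1, ISU2, NFS1, SSQ1 and GRX5 lie above 0 in Y22-3 and below 0 in Y128. The SSQ1 interval in Y22-3 includes 0, and the median gene of Y22-3 lies at -1.28.

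The difference between strains in the change with oxygen in xylose was tested by interaction. For Y127 against Y22-3 3 members were higher and 4 lower, beside 65.3% and 8.9% of all tested genes, and 0 and 8 with centred libraries, beside 32.1% and 34.5%. For Y128 against Y22-3 0 members were higher and 8 lower, beside 59.3% and 19.1% of all tested genes, and 0 and 10 with centred libraries, beside 40.1% and 38.0%. For Y128 against Y127 0 members were higher and 7 lower, beside 13.1% and 24.3% of all tested genes, and 0 and 7 with centred libraries, beside 25.6% and 22.9%. In the comparison of Y128 with Y22-3, YFH1 and JAC1 were the members that did not pass, and in that of Y128 with Y127 they were ISU2, SSQ1 and ISA1. All genes had a median of 1.25 in the former and -0.20 in the latter, beside -1.01 and -1.10 for the members. The Y127 against Y22-3 calls of ISD11, JAC1 and ISA1 were lost when 1 of several libraries was left out, with the limma adjusted p then given in parentheses. ISD11 was lost without Y127 anaerobic xylose replicate B (0.0993), Y22-3 anaerobic xylose replicate B (0.0567) or Y127 aerobic xylose replicate B (0.0564), JAC1 without Y127 anaerobic xylose replicate B (0.0660), Y22-3 aerobic xylose replicate A (0.0551) or Y127 aerobic xylose replicate B (0.0503), and ISA1 without Y22-3 aerobic xylose replicate B (0.131), Y127 aerobic xylose replicate A (0.118), Y127 anaerobic xylose replicate A (0.0909) or Y22-3 anaerobic xylose replicate A (0.0535). For Y128 against Y22-3 and against Y127, whichever library was left out, 6 of 8 and 6 of 7 calls passed. In the former SSQ1 was lost without Y22-3 anaerobic xylose replicate A (0.130), Y128 aerobic xylose replicate B (0.0925), Y128 anaerobic xylose replicate A (0.0837), Y22-3 aerobic xylose replicate B (0.0621) or Y22-3 aerobic xylose replicate A (0.0502), and ISA2 without Y22-3 aerobic xylose replicate B (0.107), Y22-3 anaerobic xylose replicate A (0.0850), Y128 aerobic xylose replicate A (0.0754) or Y128 anaerobic xylose replicate A (0.0689). In the latter JAC1 was lost without Y127 anaerobic xylose replicate B (0.0694).

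Between sugars with oxygen, ISU1 passed in all 3 strains, as no other member did. Values in parentheses after a left-out library are limma adjusted p without it. In Y22-3, xylose against glucose, 7 members were higher and 1 lower, beside 31.0% and 22.1% of all tested genes, and 5 and 1 with centred libraries, beside 28.6% and 34.6%. In Y127 1 member was higher and 0 lower, beside 14.0% and 25.8% of all tested genes, and 5 and 0 with centred libraries, beside 22% and 21.9%. In Y128 4 members were higher and 0 lower, beside 24.3% and 18.6% of all tested genes, and 6 and 0 with centred libraries, beside 25.7% and 29.7%. ISU2 was the member that was lower in Y22-3. In Y128 the 4 were ISU1, NFS1, ISD11 and ISA2, and NFS1 was 2.07-fold and ISD11 1.84-fold higher (limma adjusted p = 7.12e-05 and 0.000703). In Y22-3 NFS1 was lost without Y22-3 aerobic glucose replicate B (0.118), Y22-3 aerobic xylose replicate A (0.115) or Y22-3 aerobic glucose replicate A (0.0682), JAC1 without Y22-3 aerobic xylose replicate A (0.336), Y22-3 aerobic glucose replicate A (0.15) or Y22-3 aerobic glucose replicate B (0.114), SSQ1 without Y22-3 aerobic glucose replicate B (0.160), Y22-3 aerobic xylose replicate A (0.0726) or Y22-3 aerobic xylose replicate B (0.0628), and ISA1 without Y22-3 aerobic xylose replicate A (0.134) or Y22-3 aerobic glucose replicate A (0.0513). Without aerobic xylose replicate A the 4 that passed were ISU1, ISU2, ISD11 and ISA2. In Y127 4 members passed without its aerobic xylose replicate A, ISU1 higher and YFH1, GRX5 and ISA1 lower.

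Without oxygen, xylose and glucose were compared within each strain, and the difference of this change between strains was not tested. In Y22-3 6 members were higher and 1 lower, beside 21.9% and 64.7% of all tested genes, and 10 and 0 with centred libraries, beside 40.4% and 45.9%. In Y127 7 members were higher and 1 lower, beside 21.8% and 28.4% of all tested genes, and 7 and 2 with centred libraries, beside 28.7% and 29.2%. In Y128 1 member was higher and 4 lower, beside 12.3% and 26.5% of all tested genes, and 3 and 4 with centred libraries, beside 26.6% and 22.5%. In Y22-3 the median gene was -1.39 and the median member 1.05. The members higher in Y127 were all but ISU2, SSQ1 and ISA1, and ISA1 was 2.05-fold lower (limma adjusted p = 0.000134). NFS1 there was lost without Y127 anaerobic xylose replicate B (0.644) or Y127 anaerobic glucose replicate 1 (0.319). In Y128 ISU1, ISU2, SSQ1 and ISA1 were lower and GRX5 higher, and the SSQ1 call was lost without any 1 of the 4 libraries (adjusted p 0.0566 to 0.137). NFS1, ISD11, YFH1, JAC1 and ISA2 did not pass there.

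In glucose Y127 was compared with Y22-3 and Y128 with Y127, and no member passed in limma. Y128 against Y22-3 was not tested there. With oxygen, 0 members had an unadjusted p under 0.05 in Y127 against Y22-3, where 1.21% of all genes were higher and 1.47% lower, and 0 in Y128 against Y127, where 0.121% were higher and 5.57% lower. Without oxygen 3 members had an unadjusted p under 0.05 in Y127 against Y22-3, and 3 in Y128 against Y127. By adjusted p no member passed in either, while 0.569% of genes were called higher and 1.31% lower in the former. In the latter 9.22% were called higher and 10.3% lower. These shares of all genes are adjusted calls, and so are not at the threshold of the unadjusted member counts. With centred libraries no member passed in either aerobic comparison (all genes 1.79% higher and 1.84% lower, then 2.38% and 6.15%). Without oxygen 1 was higher in Y127 against Y22-3 (all genes 3.03% and 2.03%), and 2 were higher and 1 lower in Y128 against Y127 (16.2% and 15.1%). In a fit of the compared libraries alone, 4 passed in Y128 against Y127 with oxygen. The share of all genes called in that fit was not counted.

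Between strains in xylose, members did pass. With oxygen, in Y127 against Y22-3 1 member was higher and 5 lower, beside 10.4% and 38.7% of all tested genes, and 1 and 2 with centred libraries, beside 28.5% and 21.3%. In Y128 against Y127 1 member was higher and 0 lower, beside 1.52% and 0.914% of all tested genes, and 2 and 0 with centred libraries, beside 1.40% and 2.19%. ISU2 was the member higher in Y127, and ISU1, ISD11, YFH1, GRX5 and ISA1 were lower. The calls of ISD11, YFH1 and GRX5 were lost with centred libraries and without Y127 replicate B (adjusted p 0.218, 0.118 and 0.257). They were also lost without a Y22-3 library, ISD11 without replicate B (0.127) and YFH1 and GRX5 without replicate A (0.0512 and 0.0666). That replicate B of Y127 had the lowest median of its tested genes among the aerobic xylose libraries, 3.82 log2 RPKM, and its part in the differences was not tested otherwise.

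In anaerobic xylose, in Y127 against Y22-3 1 member was higher and 5 lower, beside 61.2% and 20.4% of all tested genes, and 0 and 10 with centred libraries, beside 43.6% and 38.6%. In Y128 against Y127 0 members were higher and 7 lower, beside 25.9% and 30.3% of all tested genes, and 1 and 7 with centred libraries, beside 33.9% and 30.4%. In Y128 against Y22-3 0 members were higher and 7 lower, beside 58.2% and 27.7% of all tested genes, and 0 and 10 with centred libraries, beside 46.7% and 41.2%. Against Y127, the 7 members lower in Y128 were ISU1, NFS1, ISD11, YFH1, JAC1, GRX5 and ISA2, and ISD11 was 2.65-fold, ISA2 2.02-fold, JAC1 and YFH1 1.75-fold and GRX5 1.72-fold lower. Against Y22-3 the 7 were ISU1, NFS1, ISD11, SSQ1, GRX5, ISA1 and ISA2, and all 7 passed whichever library was left out. The growth states differed in both comparisons. YFH1 was the member higher in Y127 than in Y22-3, by 0.71, and it was lower by 0.27 with centred libraries, where the median gene had moved by 1.12. SSQ1 and GRX5 in that comparison were lost without Y22-3 replicate A (0.231 and 0.0558) or Y127 replicate A (0.359 and 0.240).

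Aerobic xylose and both glucose conditions are those in which the sample descriptions call the cultures of all 3 strains growing, although the parent is also described as unable to use xylose before passage. Averaged over them, in the evolved strains against Y22-3 1 member was higher and 4 lower, beside 10.8% and 41.3% of all tested genes, and 1 and 0 with centred libraries, beside 28.0% and 22.7%. ISU2 was the one higher and YFH1, JAC1, GRX5 and ISA1 the lower ones, and ISU2 alone passed with centred libraries. The ISU2 difference lay in aerobic xylose, with means of 3.79, 5.09 and 5.72 log2 RPKM in Y22-3, Y127 and Y128. In the same order its means were 5.46, 5.30 and 5.55 in aerobic glucose and 5.26, 4.955 and 5.45 in anaerobic glucose. JAC1 was lost when any 1 of 10 libraries was left out (limma adjusted p in parentheses), Y22-3 aerobic xylose replicate A (0.146), Y22-3 anaerobic glucose replicate B (0.10), Y22-3 aerobic glucose replicate B (0.0827), Y127 aerobic glucose replicate 1 (0.0702), Y22-3 aerobic glucose replicate A (0.0687), Y128 aerobic glucose replicate A (0.0672), Y127 anaerobic glucose replicate 1 (0.0655), Y127 aerobic xylose replicate B (0.0601), Y128 anaerobic glucose replicate B (0.0569) or Y128 aerobic xylose replicate A (0.0559). YFH1 was lost without Y22-3 aerobic glucose replicate A (0.0501). The strain comparisons share the Y22-3 or Y127 libraries, so their counts are not independent of each other.

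The galactose and sorbitol libraries had no replicates, so their differences compare libraries and not conditions. Without against with oxygen in galactose, ISU1 went from 9.05 to 11.03 log2 RPKM in Y22-3 and from 9.14 to 6.39 in Y128. The differences were 1.99 (95% counting interval 1.92 to 2.05) and -2.75 (-2.85 to -2.65), with the signs of the xylose comparison. NFS1 went from 6.84 to 8.32 in Y22-3 and from 7.07 to 6.29 in Y128. Past a 2-fold difference, 2 members (ISU1 and NFS1) were higher and 5 lower in Y22-3. There 9.74% of all genes were higher and 58.2% lower by that much and 68.0% in either direction. In Y128 0 were higher and 5 lower, beside 7.86% and 23.1% of all genes, and 30.9% in either direction. With centred libraries 3 were higher and 0 lower in Y22-3, beside 22.7% and 21.9% of all genes. In Y128 0 were then higher and 3 lower, beside 11.7% and 10.3%. The median gene differed by -1.25 in Y22-3 and -0.51 in Y128. Both strains are described as growing in galactose with and without oxygen.

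In sorbitol with oxygen ISU1 was at 11.97 in Y128, its highest value in any library, and at 11.40 in Y22-3, between the 11.24 and 11.54 of the Y22-3 libraries in anaerobic xylose. It was at 10.06 and 9.93 without. ISU2 was at 3.46 and 4.94 with oxygen and at its lowest without, 2.15 and 2.99. The ratio of ISU1 to ISU2 was therefore 245 and 239 in Y22-3 and 131 and 123 in Y128. Of the members, 9 of 10 were at least 2-fold lower without oxygen in Y22-3, beside 72.2% of all genes lower by that much and 76.8% past 2-fold in either direction, and 7 in Y128, beside 60.6% lower and 68.9% in either direction. With centred libraries 1 member (ISD11) was that much lower and 1 (GRX5) higher in Y22-3, beside 17.5% and 28.8% of all genes. In Y128 2 were then lower and 0 higher, beside 20.4% and 27.9%. The median gene was 1.81 and 1.40 lower, and the anaerobic sorbitol libraries had the lowest medians of all, 2.06 and 2.73 log2 RPKM. With libraries centred on their medians the ISU1 difference in Y22-3 was 0.72 in place of -1.34, and that of ISU2 0.75 in place of -1.31. JAC1 in the anaerobic Y22-3 library rested on 23 reads.

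Between Y128 and Y22-3 the difference in ISU1 was 0.10 in aerobic and -4.64 in anaerobic galactose, and 0.57 and -0.13 in aerobic and anaerobic sorbitol. Of the 4 conditions, anaerobic galactose was thus the one where the Y128 library was lower by more than 2-fold. Past 2-fold, 1 member (ISU2) was higher and 0 lower in aerobic galactose, beside 4.48% and 10.8% of all genes (15.3% in either direction). In anaerobic galactose 0 were higher and 2 (ISU1 and NFS1) lower, beside 41.1% and 15.2% (56.3%). In aerobic sorbitol 2 (ISU2 and ISD11) were higher and 1 (ISA1) lower, beside 16.2% and 10.6% (26.8%). In anaerobic sorbitol 3 (ISD11, JAC1 and SSQ1) were higher and 1 (ISA1) lower, beside 39.4% and 10.7% (50.1%). With centred libraries 1 was higher and 0 lower in aerobic galactose, beside 5.67% and 9.24%. In aerobic sorbitol 1 (ISU2, and no longer ISD11) was then higher and 1 lower, beside 13.2% and 12.8%. In anaerobic galactose 0 were higher and 3 lower, beside 22.7% and 22.7%. In anaerobic sorbitol 1 was then higher and 1 lower, beside 18.5% and 20%. ISA1 was at 6.84 in Y22-3 and 4.68 in Y128 in aerobic sorbitol, a difference of -2.16 (-2.34 to -2.0).

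Other genes of iron-sulfur and iron biology were counted from 4 lists in the same xylose comparisons, without against with oxygen, with log2 changes for the 3 genes of lowest adjusted p. The shares of all tested genes called higher were 20.7% (Y22-3), 33.6% (Y127) and 21.0% (Y128), and those called lower 63.7%, 23.5% and 26.3%. Of 11 further mitochondrial assembly genes tested, 1 was higher and 9 lower in Y22-3, led by AIM1 (-3.23), ATM1 (-2.93) and ACP1 (-2.17). In Y127 2 were higher and 4 lower, led by MRS4 (-0.82), ARH1 (-0.68) and NFU1 (0.86), and in Y128 1 was higher and 4 lower, led by MRS4 (-2.27), ACP1 (-1.27) and AIM1 (-1.32). ATM1 encodes the mitochondrial exporter that links the matrix to cytosolic assembly, MRS4 an iron carrier of the inner membrane and ACP1 the acyl carrier protein of the desulfurase complex. The list medians were -1.84, -0.26 and -0.34 in Y22-3, Y127 and Y128, beside -1.28, 0.13 and -0.11 for all genes. With centred libraries 3, 2 and 1 were higher, beside 40.3%, 28.9% and 24.8% of all genes, and 7, 8 and 5 lower, beside 45.0%, 37.3% and 32.7%.

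Of 10 cytosolic assembly genes, 2 were higher and 7 lower in Y22-3, led by MET18 (-4.09), TAH18 (-3.50) and CIA1 (-3.21). In Y127 the counts were 2 and 3, led by NAR1 (1.86), TAH18 (-0.84) and DRE2 (-0.81), and in Y128 0 and 4, led by DRE2 (-1.67), LTO1 (-1.75) and CFD1 (-0.73). DRE2 and TAH18 encode the electron transfer pair of that pathway. The list medians were -0.78, -0.32 and -0.34, and with centred libraries 0.37, -0.56 and -0.35. Centred counts were 4, 2 and 0 higher and 3, 6 and 6 lower, so the majority of lower genes in Y22-3 was not kept. Of 22 genes for proteins that carry a cluster, 0 were higher and 17 lower in Y22-3, led by ELP3 (-3.20), BIO2 (-3.57) and PRI2 (-3.67), with a median of -2.20. In Y127 8 were higher and 4 lower, led by BIO2 (1.98), SDH2 (1.90) and GLT1 (1.69), and in Y128 6 and 6, led by BIO2 (3.97), RIP1 (-3.07) and GLT1 (2.27). The medians were 0.30 and -0.11. With centred libraries 6, 8 and 7 were higher and 14, 10 and 9 lower in Y22-3, Y127 and Y128. BIO2 is biotin synthase, GLT1 glutamate synthase, SDH2 the iron-sulfur subunit of succinate dehydrogenase and RIP1 the Rieske protein of the respiratory chain.

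The list of genes activated by Aft1 and Aft2, not all of them genes of iron uptake, gave the lowest medians of the 4 lists. Of 18 tested, 2 were higher and 16 lower in Y22-3, led by FTR1 (-4.88), HMX1 (-5.49) and VHT1 (-4.24), with a median of -3.04. In Y127 1 was higher and 17 lower, led by FIT1 (-8.73), FRE3 (-4.54) and HMX1 (-6.03), with a median of -2.09, and in Y128 0 and 18, led by FIT3 (-8.77), FIT1 (-10.31) and ARN1 (-5.63), with a median of -5.79. With centred libraries 3, 1 and 0 were higher and 13, 17 and 18 lower. FTR1 is the iron permease, the FIT genes encode cell wall mannoproteins that hold siderophores, ARN1 is a siderophore transporter and HMX1 a heme oxygenase.

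The genes whose levels were most like those of ISU1 over the 20 condition means were FAA1 (Pearson r = 0.938), a fatty acyl-CoA synthetase gene, SNC2 (0.923), a vesicle v-SNARE gene, YGR068W-A (0.910), PMP3 (0.907), which encodes a small plasma membrane protein, and SDH8 (0.906), an assembly factor of succinate dehydrogenase. FAA1 was at 7.92 log2 RPKM in Y22-3 and at 0.31 in Y128 in anaerobic xylose (means of 2 libraries). Among the 5800 other tested genes NFS1 ranked 379th by this measure (r = 0.573) and ISU2 3467th (r = -0.450), and the other members had r between -0.216 (YFH1) and 0.113 (GRX5). These values depended on the scaling. With centred libraries NFS1 had r = 0.795 (rank 188) and ISU2 r = -0.254 (rank 3313). The other members then had r between -0.025 (YFH1) and 0.593 (SSQ1), with 0.524 for GRX5. Within the 10 members the highest correlations were those of ISD11 with ISA2 (r = 0.926) and with YFH1 (r = 0.913). The 20 points share strains and media, 8 of them are single libraries, and the low values of the anaerobic sorbitol libraries enter every pair, so these values are a description.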

How the data were processed

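RNA from 32 yeast cultures was depleted of ribosomal RNA and sequenced by the authors with a stranded kit and single-end reads. The authors trimmed reads with Trimmomatic 0.3.0, mapped them with Bowtie2 2.2.2 to a Y22-3 genome, counted them per gene with HTSeq 0.6.0 and deposited log2 RPKM values. The deposited table holds 6328 genes. Low values fell on whole read counts after 1 added read was taken off (84.5% to 91.2% of values under 200 reads, within 0.15 of a read), which gave the library totals. This was used to describe depth only.

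Groups came from strain, medium and oxygen in the labels. limma 3.58.1 (R 4.3.3) with a variance trend was fitted to the 24 libraries of 12 duplicated groups for the 5801 genes whose mean RPKM reached 1 (12 residual and 7.57 prior degrees of freedom). No pseudocount was added. Each of 25 two-sided comparisons was adjusted by Benjamini-Hochberg over all tested genes, with a threshold of 0.05. The authors used edgeR on counts for their own tests, which deposited log2 values do not allow. With 2 libraries per group no permutation test could pass, so p-values rest on a spread shared across genes, and on cultures of 1 strain on different days. The fitting code was tested on simulated data.

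All 10 members were named. Of each list (further mitochondrial assembly, cytosolic assembly, iron-sulfur proteins, Aft iron regulon) the 3 genes of lowest adjusted p that passed were named for oxygen loss in xylose, and the 5 genes most like ISU1 by Pearson r. Members and lists were chosen with earlier results of these data known. Alternatives were centred libraries, log2(RPKM + 1), no filter, no variance trend, only the libraries compared, a replicate block and leaving out each library. Coordinates and promoters came from RefSeq's S288C R64. The promoter of 1 member is not reported here. Motif searches used Python 3.11.15, pandas 2.3.3 and numpy 2.4.6, and figures matplotlib 3.10.9.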

Additional observations from a re-analysis of the deposited data

Results flagged for a closer look

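The change with oxygen loss in xylose differed between strains by the limma interaction in 22 of 30 member tests, given here in log2 units with Benjamini-Hochberg adjusted p. That count stands beside many calls among all tested genes. For Y127 against Y22-3, 65.3% of them were higher and 8.9% lower, and for Y128 against Y22-3 59.3% and 19.1%. For Y128 against Y127 the shares were 13.1% and 24.3%. For Y127 against Y22-3 the differences were -2.44 in ISU1 (1.65e-06), -1.39 in ISU2 (0.000133), -1.51 in NFS1 (1.90e-05), 0.79 in ISD11 (0.0111), 1.23 in YFH1 (4.18e-05), 0.90 in JAC1 (0.00863) and -0.72 in ISA1 (0.0200). For Y128 against Y22-3 they were -5.17 in ISU1 (6.09e-11), -1.98 in ISU2 (1.75e-06), -3.02 in NFS1 (1.78e-09), -0.998 in ISD11 (0.00182), -0.67 in SSQ1 (0.0301), -1.03 in GRX5 (0.00133), -1.08 in ISA1 (0.00102) and -0.73 in ISA2 (0.0245). For Y128 against Y127 they were -2.73 in ISU1 (3.05e-06), -1.51 in NFS1 (0.000106), -1.78 in ISD11 (3.13e-05), -1.11 in YFH1 (0.000518), -1.03 in JAC1 (0.00855), -1.09 in GRX5 (0.00286) and -1.28 in ISA2 (0.00148). With centred libraries the Y127 against Y22-3 differences in ISD11, YFH1 and JAC1 turned to -0.61, -0.17 and -0.49, and those in ISD11, JAC1 and ISA1 did not pass under at least 1 choice of a library left out, nor did those of Y128 against Y22-3 in SSQ1 and ISA2 and against Y127 in JAC1. Neither Y22-3 nor Y127 grew in anaerobic xylose. Y128 did, so in its comparisons strain and growth cannot be told apart.

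For 11 further pairs of strains, all xylose libraries lay above all glucose libraries of a member in one strain and below them in the other, and the difference between strains was not tested. How many of all tested genes did so was not counted, so whether 11 is many or few is not known. In these pairs the sugar difference itself did not pass for ISU2 and ISA1 in aerobic Y127 and Y128, nor for NFS1 and ISD11 in anaerobic Y128. Without oxygen, Y128 minus Y22-3 was -6.28 in ISU1, -2.83 in NFS1, -1.43 in ISD11 and -2.0 in ISA1. Y128 minus Y127 was -2.24 in ISU1 and -1.83 in ISD11, and Y127 minus Y22-3 was -2.12 in ISA1. With oxygen, Y128 minus Y22-3 was 1.85 and Y128 minus Y127 0.40 in ISU2, while in ISA1 Y127 minus Y22-3 was -1.09 and Y128 minus Y127 0.78.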

How the results depend on the processing

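Of 250 member results, 248 or more kept their direction and side of the threshold with log2(RPKM + 1) or without the filter, 246 without the variance trend, 215 with only the libraries compared and 188 with centred libraries. Leaving out a library kept 1136 of 1260. Centring turned the direction in Y22-3 for oxygen loss in xylose in ISD11 (0.21), YFH1 (0.73) and ISA2 (1.04), and for anaerobic xylose against glucose in ISU2 (0.61) and SSQ1 (1.13). It did so for Y127 against Y22-3 in anaerobic xylose in ISD11 (-0.72), YFH1 (-0.27), JAC1 (-0.52) and ISA2 (-0.72), and in the interaction in ISD11 (-0.61), YFH1 (-0.17), JAC1 (-0.49), GRX5 (-1.34) and ISA2 (-0.84), and for Y128 against Y22-3 in YFH1 (-1.04). For oxygen loss in Y22-3 it did so in galactose in GRX5 (0.038) and in sorbitol in ISU1 (0.72), ISU2 (0.75), NFS1 (0.60), JAC1 (0.13) and ISA2 (0.35).

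With centring the members called became 5 in place of 1 for aerobic xylose against glucose in Y127, 1 and 3 in place of 0 for Y127 against Y22-3 and Y128 against Y127 in anaerobic glucose, 3 in place of 6 and 2 in place of 1 for the same pairs in aerobic xylose, 10 in place of 6 for Y127 against Y22-3 in anaerobic xylose, 1 in place of 5 for the evolved strains, and 18 in place of 38 differences past 2-fold in galactose and sorbitol. With only the libraries compared they became 1 in place of 7 for oxygen loss in Y127 in xylose, 9 in place of 4 and 8 in place of 5 for aerobic and anaerobic xylose against glucose in Y128, 4 in place of 0 for Y128 against Y127 in aerobic glucose, 3 in place of 6 for Y127 against Y22-3 and 0 in place of 1 for Y128 against Y127 in aerobic xylose, and 4 in place of 7 for the interaction of Y127 against Y22-3. Without the variance trend Y128 against Y127 in aerobic xylose had 0. Shares of all genes called were counted for the main fit and for centred libraries, and not for the other settings. Apart from the scaling and the number of libraries in the fit, the cause was not tested.

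Leaving out a library moved the count between 3 and 8 for Y127 against Y22-3 and 0 and 3 for Y128 against Y127 in aerobic xylose, 0 and 1 for Y128 against Y127 in anaerobic glucose, 3 and 6 for the evolved strains, 4 and 7 for oxygen loss in Y127 in glucose and 4 and 6 in xylose, and 1 and 4 in Y127 and 4 and 7 in Y22-3 for aerobic xylose against glucose. Deviations between replicate letters correlated over 0.1 in 7 of 45 pairs of groups and under -0.1 in 1 (median r 0.0108, r from -0.105 to 0.332). Such a check cannot exclude that some groups shared a day, and the main fit used no replicate block. The replicate block could be fitted to 20 lettered libraries and 17 comparisons and changed 1 of 170 calls, ISA1 for Y128 against Y127 in aerobic xylose (0 members, adjusted p 0.0530). The same 20 libraries without the block, a fit chosen after seeing the data, also gave 0 (0.0584).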
